A study of Homo sapiens with 24 samples.

Results

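The genes described here are 42 genes of the lysosome and of the vacuolar proton pump (V-ATPase), chosen by symbol with 1 probe set each, that of the highest mean signal, and they are 42 of 18417 genes with a probe set of a single symbol. They are 13 V-ATPase subunits (8 of the V1 sector and 5 of the V0 sector), 13 acid hydrolases, 2 cofactors of the lumen, 7 membrane proteins, 3 transcription factors and 4 autophagy genes. RNA was measured on 24 Affymetrix arrays from 2 B-lymphoblastoid cell lines, GM10861 and GM10855, which are HapMap lines of B cells immortalised with Epstein-Barr virus. In each line there were 3 arrays of cells given calcitriol (the hormonal form of vitamin D) for 36 h, 3 of cells given estrogen for 36 h, 3 of cells given both agents for 36 h and 3 of untreated cells taken at 0 h. The labels give no dose, no estrogen compound, no vehicle and no untreated cells at 36 h, so that in every comparison with untreated cells the agent and the 36 h of culture cannot be told apart; comparisons among the 3 groups at 36 h share the time. Each line comes from 1 person's B cells, and the 3 arrays of a group are not stated to come from separate cultures, so each p-value reflects variation among 3 arrays that could be technical.

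Lysosomes are the acidic organelles in which a cell breaks down proteins, lipids and sugars taken up from outside or delivered by autophagy. The V-ATPase uses ATP, split by its cytosolic V1 sector, to drive protons through its V0 sector in the membrane, and the acid so made lets the hydrolases work. TFEB, TFE3 and MITF are related transcription factors that bind an E-box, CACGTG, within the CLEAR element found near the start of many lysosomal genes. In B cells lysosomes and related compartments also cut antigen for loading on MHC class II.

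The CLEAR element gives a sequence that some of these genes share; the choice by symbol did not use it, although several of them are textbook targets of TFEB. RefSeq promoters (250 bases before to 50 after the start of a gene, GRCh38.p14) were found for 29 of the 42 genes, and the letters CACGTG stood in 8 of the 29 (27.6%), against 7.26% of 35116 promoters and 8.77% of genes with one. The longer TCACGTGA, which contains CACGTG, stood in 5 of the 29 (17.2%), against 0.98% of all promoters and 1.18% of genes. Both words read the same on either strand. CD63 held CACGTG in 1 of its listed promoters. The following sequences are shown because they carry these letters, in capitals (TCACGTGA where the longer word is complete, otherwise CACGTG); each runs 5′ to 3′ on the strand of the gene.
LAMP1 (chr13:113297035-113297249, + strand): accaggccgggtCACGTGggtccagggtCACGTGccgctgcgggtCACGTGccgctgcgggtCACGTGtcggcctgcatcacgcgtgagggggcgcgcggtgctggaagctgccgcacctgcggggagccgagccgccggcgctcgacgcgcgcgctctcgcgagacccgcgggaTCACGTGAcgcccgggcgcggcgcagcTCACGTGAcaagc
MCOLN1 (chr19:7522571-7522627, + strand): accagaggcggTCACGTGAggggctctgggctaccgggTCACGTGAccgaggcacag
GAA (chr17:80101493-80101567, + strand): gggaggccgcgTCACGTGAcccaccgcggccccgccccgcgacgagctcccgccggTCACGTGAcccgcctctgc
ATP6V0D1 (chr16:67481199-67481228, - strand): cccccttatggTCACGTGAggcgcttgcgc
ATP6V1G1 (chr9:114587699-114587728, + strand): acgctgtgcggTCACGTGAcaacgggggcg
ATP6V0B (chr1:43974891-43974938, + strand): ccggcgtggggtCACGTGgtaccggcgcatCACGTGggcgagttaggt
NEU1 (chr6:31862930-31862959, - strand): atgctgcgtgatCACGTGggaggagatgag

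NPC1, which was one of the 2 genes that passed the test in a comparison of agents averaged over both lines, held neither word in the window searched. The 250 bases before its start are shown for comparison.
NPC1 (chr18:23586507-23586756, - strand): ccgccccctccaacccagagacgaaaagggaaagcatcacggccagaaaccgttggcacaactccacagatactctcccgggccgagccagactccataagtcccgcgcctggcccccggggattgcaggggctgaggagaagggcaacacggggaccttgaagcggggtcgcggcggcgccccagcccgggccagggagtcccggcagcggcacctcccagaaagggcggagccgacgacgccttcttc
LAMP3, the other such gene, had no entry in the promoter table. A match is a description of letters and not a measured binding site.

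Correlations between arrays of a group were 0.985 to 0.993 and those between lines 0.978 to 0.984, no 2 arrays held identical values, and array medians lay between 5.38 and 5.5 log2 units. Of the 42 genes, 41 had a mean log2 signal of at least 5; MITF did not. B cell markers (7 of 8 measured) averaged 7.71 to 8.44 log2 units on an array, against 4.47 to 4.74 for monocyte and macrophage markers (11 of 12 measured), 4.58 to 4.77 for T cell markers (8) and 4.42 to 4.64 for fibroblast markers (6). CAMP and CYP24A1, textbook targets of the vitamin D receptor, rose by 2.46 and 2.06 log2 units with calcitriol against untreated cells (limma, adjusted p = 1.21e-13 and 3.89e-11), and their changes with estrogen, 0.13 and 0.019, did not pass the test (adjusted p = 0.978 and 0.999).

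With calcitriol against untreated cells LAMP3 was the 1 of the 42 genes that passed the test, and it was higher. LAMP3 is a lysosome-associated membrane glycoprotein first described in mature dendritic cells. In GM10861 its log2 signal was 8.32, 8.28 and 8.23 with calcitriol, 8.08, 8.09 and 8.26 with estrogen and 8.42, 8.32 and 8.33 with both agents, against 8.13, 8.10 and 7.95 in untreated cells. In GM10855 it was 9.06, 9.15 and 9.06 with calcitriol, 8.89, 9.03 and 8.81 with estrogen and 9.12, 9.12 and 9.17 with both agents, against 8.86, 8.76 and 8.74 in untreated cells. In both lines every array with calcitriol, alone or with estrogen, lay above every untreated array, while the estrogen and untreated arrays overlapped.

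Averaged over the lines, LAMP3 rose by 0.26 ± 0.053 log2 units (SE; 1.20-fold) with calcitriol against untreated cells (limma, adjusted p = 0.0133) and by 0.33 ± 0.053 (1.25-fold) with both agents (adjusted p = 0.00103). All 6 arrays of each of these treatments exceeded the untreated mean of their own line. In the comparison that shares the time, both agents against estrogen alone, the rise was 0.22 ± 0.053 log2 units (1.17-fold, limma, adjusted p = 0.0498, 6 of 6 arrays), and no array of the 2 treatments overlapped within a line. That last call rested on the threshold: it was lost in 21 of the 24 fits that left out 1 array, with adjusted p up to 0.167. The calcitriol call was lost in 3 of those 24 fits (adjusted p up to 0.0653) and when only the 12 arrays compared were fitted (0.0613); leaving out the third untreated array of GM10861, the lowest of all for LAMP3, was one of the 3.

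These counts were read against the whole array. Of 21214 probe sets tested, 0.618% were called higher with calcitriol against untreated cells, 0.995% with both agents, 0.41% in the mean of the 3 groups at 36 h against untreated cells, and 0.679% when calcitriol was added to estrogen. Of the 42 genes, 1 (2.38%), 2 (4.76%), 1 (2.38%) and 1 (2.38%) were called higher in those comparisons and 0 were called lower in any of them, while 9, 7, 6 and 7 had an unadjusted p under 0.05. Over the whole array 1390, 2311, 1639 and 1684 of the 21214 probe sets had an unadjusted p under 0.05. In the mean over the 36 h groups the called gene was LAMP3 (0.23 ± 0.043 log2 units, SE; limma, adjusted p = 0.00789; 18 of 18 arrays above the untreated mean of their line).

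NPC1 was the second gene called. Its protein moves cholesterol out of the lysosome across the limiting membrane. In GM10861 the log2 signal of NPC1 was 7.93, 7.88 and 7.71 with calcitriol, 7.75, 7.79 and 7.75 with estrogen and 7.79, 7.86 and 7.93 with both agents, against 7.79, 7.69 and 7.79 in untreated cells. In GM10855 it was 7.13, 6.95 and 6.98 with calcitriol, 7.28, 6.94 and 7.01 with estrogen and 7.27, 7.12 and 7.23 with both agents, against 6.84, 6.64 and 6.78 in untreated cells. The treated arrays lay above every untreated array in GM10855 and overlapped the untreated arrays in GM10861. With both agents NPC1 rose by 0.28 ± 0.063 log2 units (SE; 1.21-fold; limma, adjusted p = 0.0245; 6 of 6 arrays above the untreated mean of their line), and the call was lost in 6 of 24 fits without 1 array (adjusted p up to 0.0806) and when only the arrays compared were fitted (0.0517). With calcitriol alone the change was 0.17 (adjusted p = 0.482) and with estrogen alone 0.16 (adjusted p = 0.882), neither of which passed the test; all these comparisons share the untreated arrays.

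**Figure D1:**
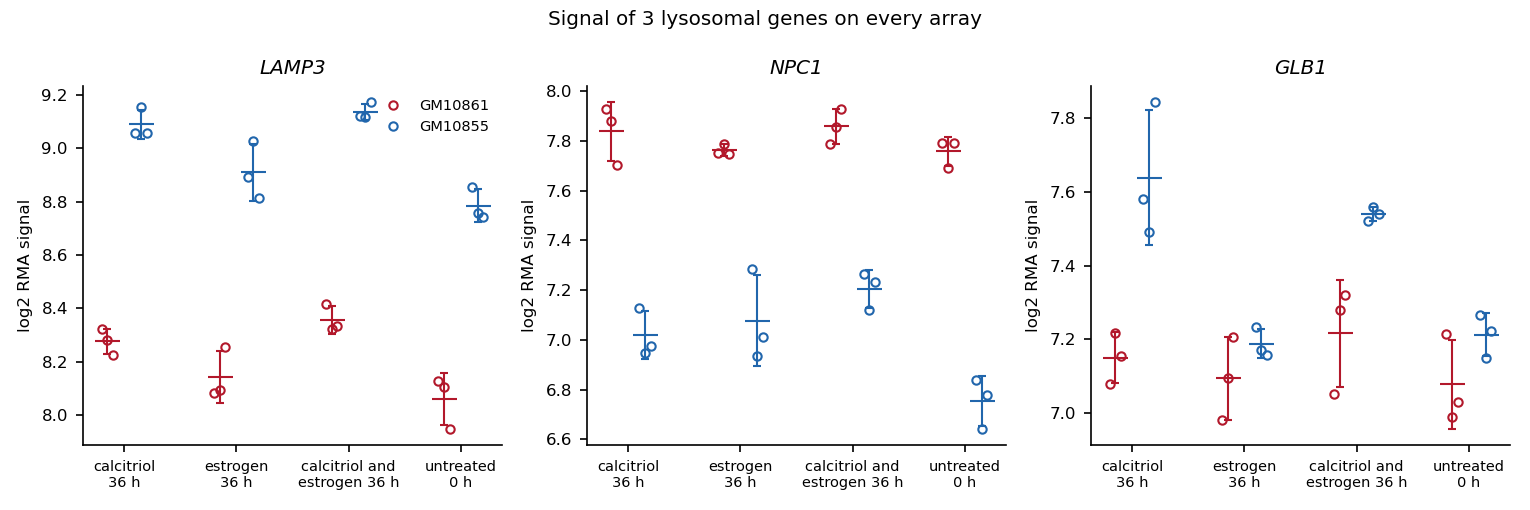
Log2 RMA signal (y axis) of LAMP3, NPC1 and GLB1 on every array, by treatment (x axis) and line (GM10861 red, GM10855 blue); circles are single arrays, dashes and bars the mean and SD of 3. LAMP3 lay above every untreated array in both lines when calcitriol was given, and LAMP3 and NPC1 differed far more between the lines than between treatments.

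Other membrane proteins, hydrolases and cofactors were not called in any of the 6 comparisons of agents averaged over the lines. Among membrane proteins the median change with calcitriol was 0.12 log2 units over 7 genes, against 0.046 over 13 hydrolases, 0.046 over 13 V-ATPase subunits, 0.055 over all 42 genes and -0.0015 over all 18417 genes. With both agents those medians were 0.088, 0.0065, 0.0020, 0.0067 and -9.05e-05. In the comparison that shares the time, calcitriol added to estrogen, they were 0.0201, -0.0298, -0.0195, -0.000289 and -0.0101. Taken by line, the median change of the 42 genes with calcitriol against untreated cells was 0.111 in GM10855 and 0.00406 in GM10861. SCARB2, the receptor that carries glucocerebrosidase to lysosomes, had a change of 0.16 with calcitriol (adjusted p = 0.628). GLB1, lysosomal beta-galactosidase, had 0.25 with calcitriol (adjusted p = 0.102) and 0.24 when calcitriol was added to estrogen (adjusted p = 0.13). PSAP, the precursor of the saposins that help hydrolases act on sphingolipids, had 0.16 with calcitriol (adjusted p = 0.263).

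Averaged over the lines, the V-ATPase gave no call in the 6 comparisons of agents. Its 13 changes with calcitriol ran from -0.10 to 0.11 log2 units, and the 95% intervals reached no lower than -0.22 and no higher than 0.24, which bounds the size of a change that these arrays could have missed. ATP6V0A1, an isoform of the large membrane subunit of V0, had the smallest adjusted p of the pump with both agents (0.21 log2 units, limma, adjusted p = 0.0758). The transcription factors gave no call in those comparisons either. TFEB had a change of -0.0081 ± 0.064 log2 units (SE) with calcitriol and 0.0047 ± 0.064 with both agents, TFE3 had -0.0058 ± 0.075 and -0.065 ± 0.075, and MITF had 0.14 ± 0.081 and 0.079 ± 0.081. Arrays measure RNA, so the location and activity of these proteins were not measured.

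**Figure D2:**
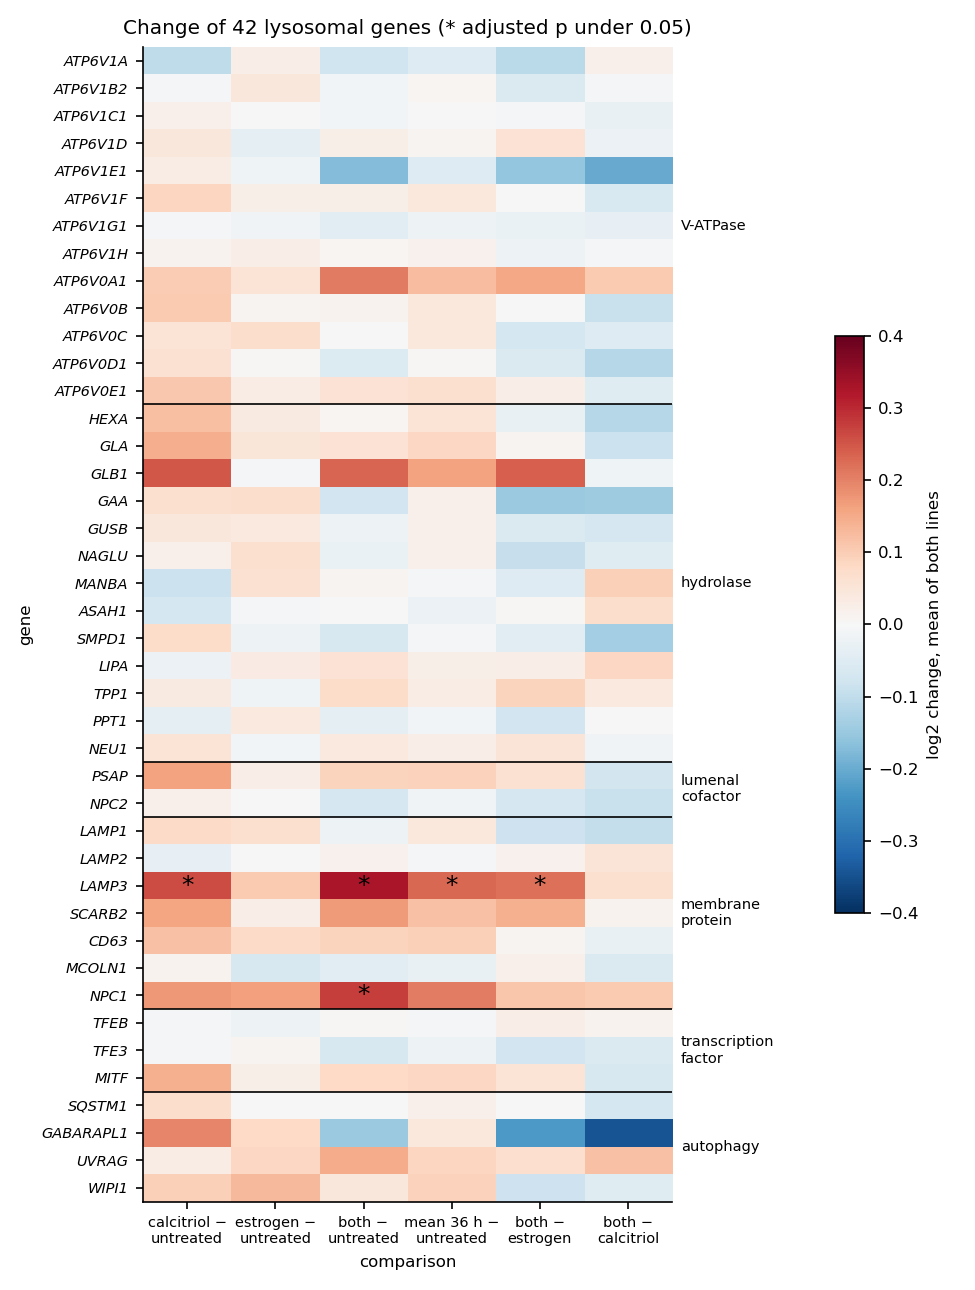
Log2 change (colour, mean of both lines) of the 42 genes (rows, grouped by role) in 6 comparisons of agents (columns); an asterisk marks an adjusted p under 0.05. The 5 asterisks stand on LAMP3 and NPC1, and most V-ATPase rows are pale.

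Estrogen moved none of the 42 genes past the threshold. Against untreated cells 0% of the 21214 probe sets were called in either direction (1097 had an unadjusted p under 0.05), as were 0 of the 42 genes (1 had an unadjusted p under 0.05). The smallest p-values among positive changes belonged to NPC1 (0.16 log2 units, adjusted p = 0.882), LAMP3 (0.10, adjusted p = 0.953) and WIPI1, a phosphoinositide-binding autophagy protein (0.13, adjusted p = 0.961). Among negative changes they belonged to MCOLN1, the lysosomal calcium channel (-0.063, adjusted p = 0.983), ATP6V1D (-0.035, adjusted p = 0.993) and TFEB (-0.021, adjusted p = 0.995).

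Estrogen added to calcitriol likewise gave 0% of probe sets called in either direction (1772 with an unadjusted p under 0.05) and 0 of the 42 genes (2 with an unadjusted p under 0.05). The largest of the 42 changes was that of GABARAPL1, an ATG8-family protein of autophagosomes, at -0.35 log2 units (limma, adjusted p = 0.409). ATP6V1E1 had -0.20 (adjusted p = 0.493) and GAA, acid alpha-glucosidase, -0.14 (adjusted p = 0.609). Among positive changes the smallest p-values were those of UVRAG (0.12, adjusted p = 0.62), ATP6V0A1 (0.11, adjusted p = 0.63) and NPC1 (0.10, adjusted p = 0.679).

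When each line was taken by itself against untreated cells, GM10855 gave calls and GM10861 none, but no difference in response between the lines passed the test. In GM10861, 0 of the 42 genes were called with calcitriol, both agents or the mean at 36 h, against 0.099%, 0.17% and 0.0848% of all probe sets called higher. In GM10855, 1 gene was called with calcitriol, 4 with both agents and 1 in the mean at 36 h, all higher, against 0.486%, 1.97% and 0.486% of probe sets. All of these calls are against 0 h cells, so the agent and the 36 h of culture cannot be told apart. For calcitriol added to estrogen, which shares the time, 0 of the 42 genes were called in either line. The smallest adjusted p (limma) was 0.0683 in GM10855 and 0.705 in GM10861, where 111 and 26 of all probe sets were called higher. GLB1 was the gene called with calcitriol: its log2 signal in GM10855 was 7.58, 7.49 and 7.84 with calcitriol, against 7.27, 7.15 and 7.22 in untreated cells, a change of 0.43 ± 0.092 (SE; limma, adjusted p = 0.0277). In GM10861 the GLB1 values, 7.08, 7.22 and 7.15 with calcitriol against 7.21, 6.99 and 7.03 in untreated cells, overlapped, and the change was 0.072 ± 0.092 (adjusted p = 0.964).

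With both agents GM10855 had calls for NPC1 (0.45 log2 units, limma, adjusted p = 0.00683), SCARB2 (0.39, adjusted p = 0.0265), LAMP3 (0.35, adjusted p = 0.0129) and ATP6V0A1 (0.32, adjusted p = 0.034). In GM10861 the same changes were 0.10, -0.045, 0.30 and 0.098, with adjusted p-values of 0.918, 0.982, 0.186 and 0.906. SCARB2 in GM10855 was 8.08, 7.94 and 8.08 with both agents, against 7.68, 7.53 and 7.74 in untreated cells; in GM10861 it was 7.10, 7.14 and 6.91 with both agents, against 7.30, 6.98 and 6.997 in untreated cells. ATP6V0A1 in GM10855 was 9.11, 8.85 and 8.89 with both agents, against 8.71, 8.52 and 8.66 in untreated cells; in GM10861 it was 8.67, 8.64 and 8.70 with both agents, against 8.65, 8.57 and 8.49 in untreated cells. In GM10855 none of these arrays overlapped. NPC1 was also the gene called in the mean at 36 h in GM10855 (0.35, adjusted p = 0.0234). All of these calls in GM10855 alone, that of GLB1 included, were lost when only the arrays compared were fitted (limma, adjusted p of 0.13 to 0.385), and those of GLB1, SCARB2 and ATP6V0A1 also with array weights (0.0619, 0.0863 and 0.0817).

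The test of the difference itself, GM10861 response minus GM10855 response, called 0 of the 42 genes for calcitriol, estrogen, both agents, the mean at 36 h and calcitriol added to estrogen, where 0.00943%, 0%, 0.0141%, 0.00471% and 0.00471% of probe sets were called and 3, 1, 2, 2 and 1 of the 42 had an unadjusted p under 0.05. In the same order 1407, 1257, 2306, 1778 and 1430 of the 21214 probe sets had an unadjusted p under 0.05. SCARB2 came nearest, at -0.43 ± 0.13 log2 units (SE) for both agents (limma, adjusted p = 0.221), followed there by NPC1 at -0.35 (adjusted p = 0.295) and ATP6V0A1 at -0.22 (adjusted p = 0.484). On the positive side of that comparison stood SQSTM1 (0.21, adjusted p = 0.582), GAA (0.18, adjusted p = 0.684) and ATP6V1F (0.13, adjusted p = 0.707). For calcitriol the smallest p-values were those of GLA (-0.41, adjusted p = 0.524), GLB1 (-0.35, adjusted p = 0.677) and SCARB2 (-0.23, adjusted p = 0.792) on the negative side, and of ATP6V1F (0.24, adjusted p = 0.747), UVRAG (0.071, adjusted p = 0.933) and NAGLU (0.063, adjusted p = 0.96) on the positive side. For the other 3 comparisons no adjusted p was below 0.393, and the smallest negative-side p-values belonged to NPC1, ATP6V0A1 and UVRAG for estrogen, to NPC1, GLA and SCARB2 for the mean at 36 h, and to SCARB2, GLB1 and GLA for calcitriol added to estrogen. Their positive sides were led by SQSTM1, MITF and MCOLN1, by ATP6V1F, SQSTM1 and GAA, and by UVRAG, ATP6V1F and TFE3, in the same order of comparisons.

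The 2 lines themselves differed in most of these genes. Over the 4 conditions 28 of the 42 genes were called between GM10861 and GM10855, 23 lower in GM10861 (54.8%) and 5 higher (11.9%), against 18.4% of all probe sets called lower in GM10861 and 23.4% called higher. The median difference over the 42 genes was -0.14 log2 units, against -0.019 over all 18417 genes. GM10861 lay below GM10855 in all 4 conditions for 25 of the 42 genes and above it in all 4 for 6. The same share over all probe sets was not computed, so these counts only describe the 42 genes. The 12 GM10861 arrays lay wholly below the 12 GM10855 arrays for 10 genes and wholly above for 2, against 3.25% and 7.19% of all probe sets. Line was not replicated beyond these 2 lines, so the comparison is one of 2 cell lines.

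**Figure D3:**
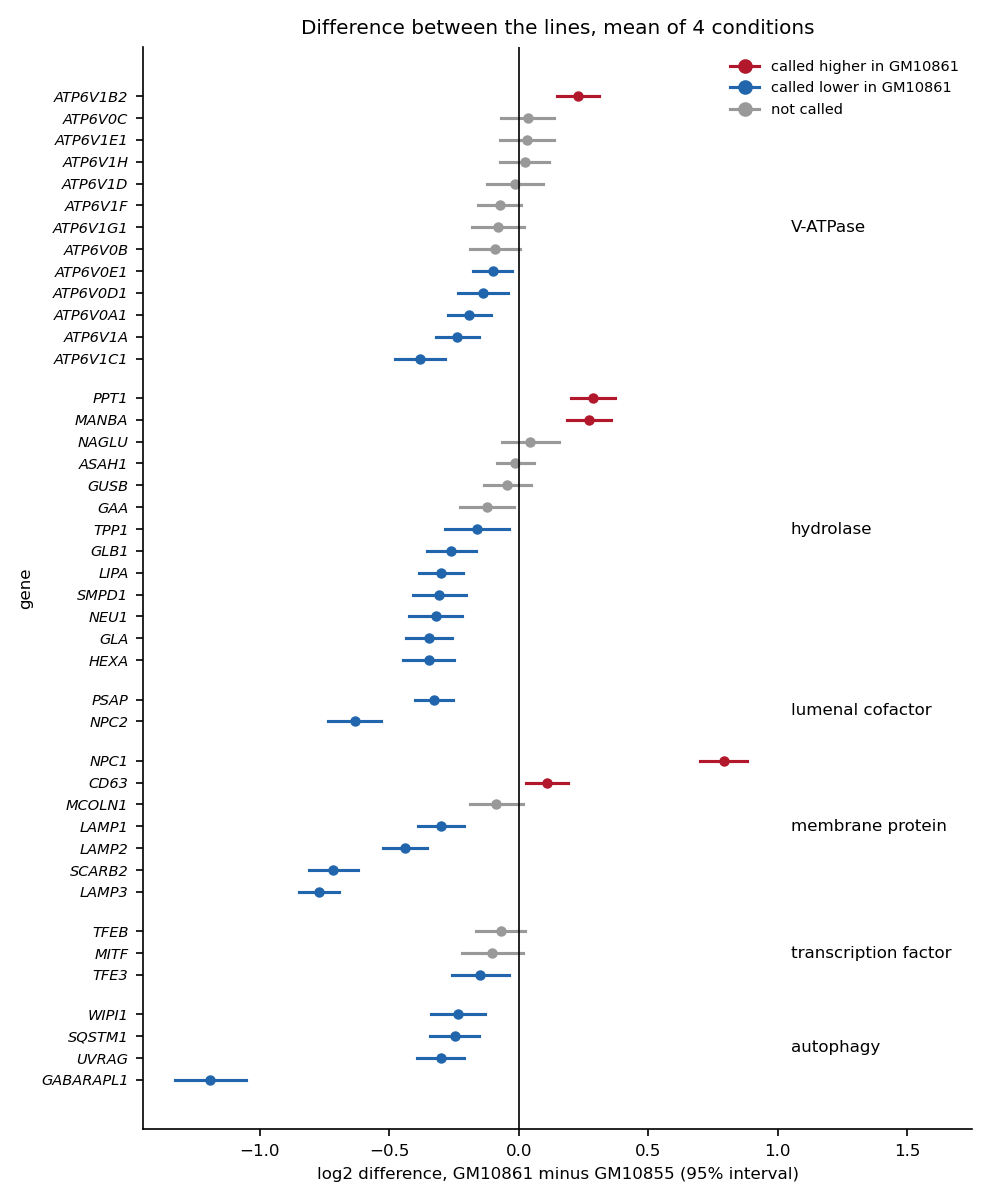
Log2 difference, GM10861 minus GM10855 (x axis, mean of 4 conditions), with its 95% interval for each of the 42 genes (y axis), grouped by role; blue marks genes called lower in GM10861, red those called higher and grey those not called. GABARAPL1 lies farthest below 0 at -1.19 and NPC1 farthest above at 0.79.

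Of the lysosomal membrane proteins 6 of 7 were called between the lines. In GM10861 4 were lower (57.1%) and 2 higher (28.6%), against 18.4% and 23.4% of all probe sets. LAMP1 and LAMP2 are the abundant glycoproteins of the lysosomal membrane. LAMP3 ranged from 7.95 to 8.42 with a median of 8.24 log2 units over the GM10861 arrays, and from 8.74 to 9.17 with a median of 9.04 over the GM10855 arrays; it fell by 0.77 ± 0.037 (SE) in GM10861, or was 1.71-fold lower (limma, adjusted p = 2.21e-14). SCARB2 ranged from 6.91 to 7.30 (median 7.10) in GM10861 and from 7.53 to 8.08 (median 7.80) in GM10855, and fell by 0.72 ± 0.046 (1.64-fold; adjusted p = 3.74e-12). LAMP2 ranged from 8.38 to 8.66 (median 8.49) in GM10861 and from 8.84 to 9.11 (median 8.91) in GM10855, and fell by 0.44 ± 0.041 (adjusted p = 3.74e-09). For these 3 genes the lines did not overlap on any array. LAMP1 also fell in GM10861, by 0.30 (adjusted p = 3.51e-06), and MCOLN1, at -0.086, was not called.

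NPC1 went the other way. It ranged from 7.69 to 7.93 with a median of 7.79 log2 units in GM10861 and from 6.64 to 7.28 with a median of 6.99 in GM10855, with no overlap, and was 0.79 ± 0.044 (SE; 1.73-fold) higher in GM10861 (limma, adjusted p = 3.43e-13). NPC2, the lumenal protein that hands cholesterol to NPC1, was lower in GM10861: it ranged from 7.90 to 8.24 (median 8.06) there and from 8.44 to 8.88 (median 8.71) in GM10855, again without overlap, and fell by 0.63 ± 0.049 (1.55-fold; adjusted p = 1.51e-10). The 2 partners of cholesterol export thus stood on opposite sides, as levels of each gene between lines. PSAP, the other cofactor, fell by 0.33 (adjusted p = 5.10e-08), without overlap. CD63, a tetraspanin of late endosomes, was 0.11 higher in GM10861 (adjusted p = 0.0307), a call lost in 7 of 24 fits without 1 array and under cyclic loess normalisation (adjusted p = 0.582).

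**Figure D4:**
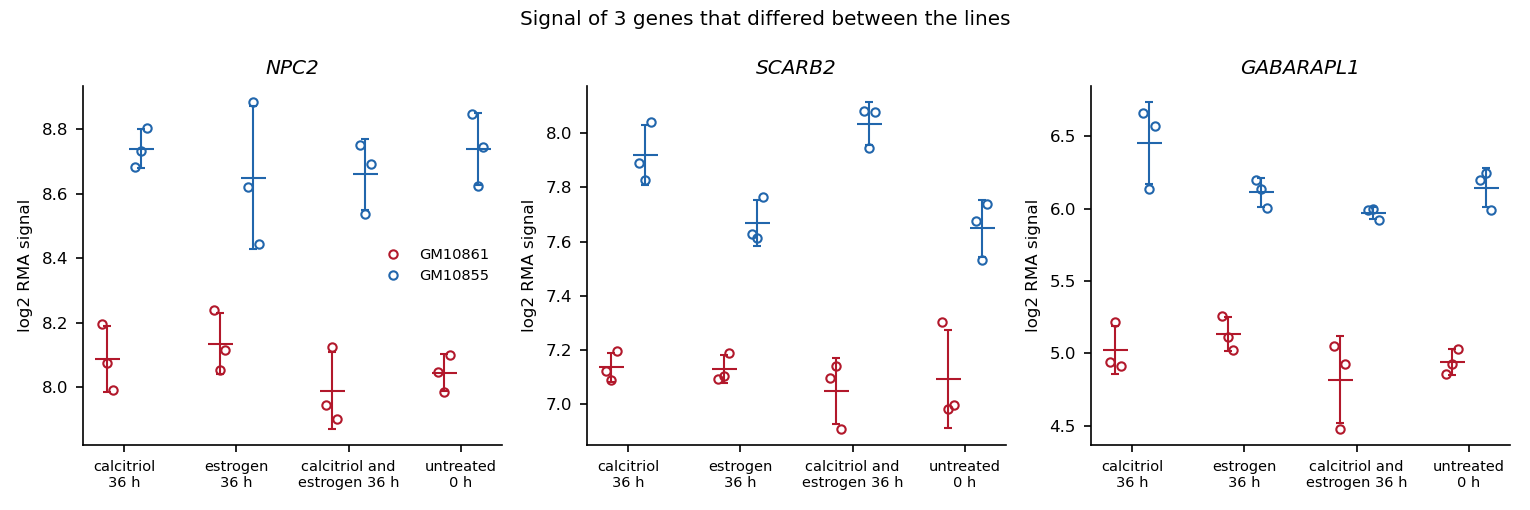
Log2 RMA signal (y axis) of NPC2, SCARB2 and GABARAPL1 on every array, by treatment (x axis) and line (GM10861 red, GM10855 blue); circles are single arrays, dashes and bars the mean and SD of 3. All GM10861 arrays lie below all GM10855 arrays for each gene, and the gap of GABARAPL1 is the widest.

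Among the 13 hydrolases 7 were called lower in GM10861 (53.8%), 2 higher (15.4%) and 4 not, against 18.4% and 23.4% of all probe sets. The lower ones were HEXA (-0.35 log2 units), GLA (-0.34), NEU1 (-0.32), SMPD1 (-0.31), LIPA (-0.30), GLB1 (-0.26) and TPP1 (-0.16), whose products act on gangliosides, globotriaosylceramide, sialic acid, sphingomyelin, cholesteryl esters, galactosides and peptides. HEXA ranged from 7.63 to 7.84 (median 7.75) in GM10861 and from 7.78 to 8.39 (median 8.10) in GM10855 (limma, adjusted p = 1.77e-06). GLA ranged from 6.40 to 6.71 (median 6.59) in GM10861 and from 6.63 to 7.19 (median 6.91) in GM10855 (adjusted p = 4.22e-07). In both genes the highest GM10861 arrays overlapped the lowest GM10855 arrays, whereas NEU1 and LIPA did not overlap. PPT1, which removes palmitate from proteins, was 0.29 higher in GM10861 (adjusted p = 2.75e-06): it ranged from 8.89 to 9.22 (median 9.04) there and from 8.61 to 8.90 (median 8.75) in GM10855. MANBA, beta-mannosidase, was 0.27 higher (adjusted p = 8.98e-06), ranging from 6.81 to 7.06 (median 6.91) in GM10861 and from 6.42 to 6.79 (median 6.70) in GM10855, without overlap. GAA, GUSB, NAGLU and ASAH1 were not called. The call for TPP1 was lost in 8 of 24 fits without 1 array (adjusted p up to 0.0646). Genes named as pseudogenes of GUSB numbered 19 in the reference gene table, so its signal is uncertain.

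The V-ATPase differed less in size between the lines, as a description of medians. The median absolute difference was 0.090 log2 units over its 13 subunits, against 0.27 over the hydrolases, 0.44 over the membrane proteins and 0.11 over all genes. By calls, 5 of the 13 subunits were lower in GM10861 (38.5%) and 1 higher (7.69%), against 18.4% and 23.4% of all probe sets. ATP6V1C1, the C subunit of V1, ranged from 7.30 to 7.60 (median 7.43) in GM10861 and from 7.60 to 7.97 (median 7.83) in GM10855, and fell by 0.38 ± 0.047 (SE; limma, adjusted p = 3.54e-07) with no overlap. ATP6V1A, the catalytic subunit, fell by 0.24 (adjusted p = 3.44e-05). The V0 genes ATP6V0A1, ATP6V0D1 and ATP6V0E1 fell by 0.19, 0.14 and 0.10 (adjusted p = 0.000369, 0.0194 and 0.03); the last call was lost in 8 of 24 fits without 1 array. ATP6V1B2, the B subunit that pairs with A, was 0.23 higher in GM10861 (adjusted p = 3.85e-05), ranging from 9.48 to 9.72 (median 9.61) there and from 9.27 to 9.55 (median 9.38) in GM10855. The 7 subunits not called were ATP6V1D, ATP6V1E1, ATP6V1F, ATP6V1G1, ATP6V1H, ATP6V0B and ATP6V0C. Of these, ATP6V1G1, ATP6V0C, ATP6V1E1 and ATP6V1F have 7, 4, 3 and 1 named pseudogenes in the gene table, and ATP6V0E1, which was called, has 4.

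**Figure D5:**
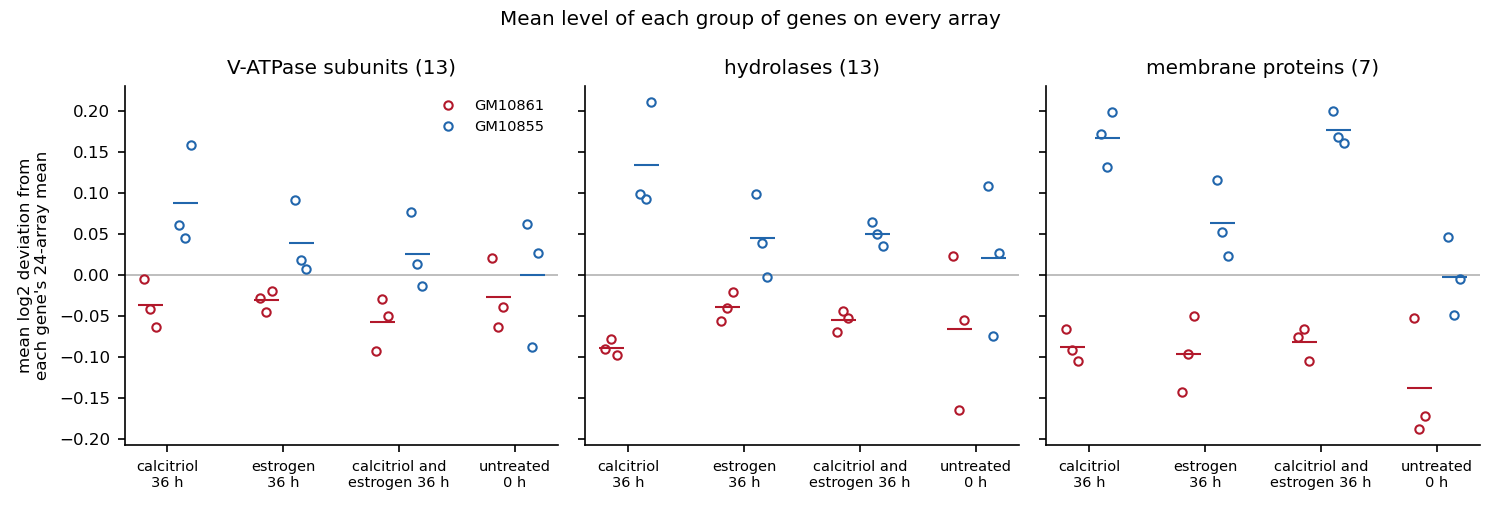
Mean log2 deviation from each gene's 24-array mean (y axis) of 13 V-ATPase subunits, 13 hydrolases and 7 membrane proteins on every array, by treatment (x axis) and line (GM10861 red, GM10855 blue); circles are single arrays and dashes the mean of 3. Membrane proteins of GM10861 lie between -0.19 and -0.050 and those of GM10855 between -0.049 and 0.20, while the means of the lines overlap for the V-ATPase and for the hydrolases (-0.16 to 0.023 in GM10861 and -0.075 to 0.21 in GM10855).

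All 4 autophagy genes were called lower in GM10861, against 18.4% of all probe sets. GABARAPL1 ranged from 4.48 to 5.26 with a median of 4.98 log2 units in GM10861 and from 5.92 to 6.66 with a median of 6.13 in GM10855, and fell by 1.19 ± 0.066 (SE; 2.28-fold lower in GM10861; limma, adjusted p = 3.16e-13). No array overlapped, and every GM10861 value lay below the lowest array median, 5.38, in the range where RMA compresses differences. UVRAG, which acts in autophagosome maturation, fell by 0.30 (adjusted p = 3.07e-06), SQSTM1, the p62 cargo receptor, by 0.25 (adjusted p = 0.000106) and WIPI1 by 0.23 (adjusted p = 0.000526). Of the transcription factors TFE3 fell by 0.15 ± 0.053 (adjusted p = 0.027), a call lost in 4 of 24 fits without 1 array and under cyclic loess (adjusted p = 0.0947). TFEB (-0.070 ± 0.045, adjusted p = 0.229) and MITF (-0.10 ± 0.057, adjusted p = 0.166) were not called.

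Other lysosomal genes outside the 42 gave the following counts. With calcitriol 2 of 13 cathepsins and legumain were called, LGMN at 0.83 and CTSZ at 0.71 log2 units (limma, adjusted p = 3.73e-09 and 8.91e-07), as they were with both agents. They were 15.4% of that list in each comparison, against 0.618% and 0.995% of all probe sets called higher. Both were also called when calcitriol was added to estrogen, which shares the time, LGMN at 0.66 and CTSZ at 0.43 (limma, adjusted p = 1.84e-07 and 0.0013). That was again 15.4% of the list, against 0.679% of all probe sets, while 0 of 19 further hydrolases were called there. With both agents IDS, iduronate sulfatase, rose by 0.30 (adjusted p = 0.00356), as 1 of 19 further hydrolases (5.26%). None of 11 further V-ATPase genes and 23 further membrane proteins was called with calcitriol, estrogen or both. Between the lines, where 18.4% of all probe sets were lower in GM10861 and 23.4% higher, 14 of the 19 further hydrolases were lower (73.7%) and 0 higher, with FUCA1 at -0.89 and ARSA at -0.49 among them. Among cathepsins and legumain 9 of 13 were lower (69.2%), with LGMN at -1.33 and CTSB at -1.18, and 2 were higher (15.4%), with CTSC at 2.05. Further V-ATPase genes split into 3 lower and 2 higher of 11 (27.3% and 18.2%), shares close to those of all probe sets. Further membrane proteins split into 10 lower and 2 higher of 23 (43.5% and 8.7%).

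Some cell type markers differed between the same groups. With calcitriol 3 of 7 B cell markers rose, CD79A (0.85 log2 units), CR2 (0.41) and PAX5 (0.26), and the mean of the 7 on an array was 8.19 to 8.35 with calcitriol over both lines, against 7.71 to 8.16 in untreated cells. Those 3 were 42.9% of the B cell markers measured, against 0.618% of all probe sets called higher. With calcitriol 0 of 11 monocyte and macrophage, 0 of 8 T cell and 0 of 6 fibroblast markers were called (limma), and 0, 0 and 0 of them had an unadjusted p under 0.05. Between the lines 5 of 7 B cell markers were higher in GM10861 (71.4%) and 1 lower (14.3%), against 23.4% and 18.4% of all probe sets. Of 11 monocyte and macrophage markers 4 were lower (36.4%), namely ITGAM, VCAN, CD163 and FCN1, and 0 were higher. Of 8 T cell markers 2 were lower (25%) and 1 higher (12.5%) in GM10861, and 0 of 6 fibroblast markers were called. No detection limit came with the arrays, so none of these markers can be called absent. Their part in the lysosomal results was not tested.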

How the data were processed

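RNA from 24 samples of 2 lymphoblastoid lines was hybridised to Affymetrix arrays. The authors deposited log2 signals per probe set, and per the submitters' processing notes the tools were RMA and Affymetrix Expression Console 1.0.1; RMA equalises array distributions, so a shift of most genes is removed, and it compresses differences of dim probe sets. The genome build of the probe sets is not given in the sources used here, and no depth applies to arrays: their number limits the precision.

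Symbols came from a platform table, which gave 19460 of 33297 probe sets a single symbol. The fit used the 21214 probe sets with at least 1 symbol, and the tested values were not filtered or renormalised. For each gene the single-symbol probe set with the highest mean over the arrays was kept (18417 genes). NEU1 had 3 probe sets, each lower in GM10861. Of these, 8125139 and 8179851 gave identical means (7.50 in GM10861 and 7.79 in GM10855), so they cannot be counted as separate measurements. limma 3.58.1 in R 4.3.3 fitted 1 mean per group (16 residual and 6.73 prior degrees of freedom). Two-sided p-values were Benjamini-Hochberg adjusted over all tested probe sets within a comparison, and a call needed an adjusted p under 0.05. Comparisons of agents are means over both lines. The procedure was tested on simulated data.

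The members, lists and comparisons were chosen with earlier results of these data known. Each called member was named, the 3 smallest p-values in each direction where none was called, the 8 largest differences between lines each way, and, of other lists, called genes. For GLB1, PSAP, SCARB2 and ATP6V0A1, values outside this rule were named after they were seen. Alternatives changed the filter, probe sets, scaling, normalisation, variance model, array weights, arrays fitted and summary per gene, or left out 1 array.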

Additional observations from a re-analysis of the deposited data

How the results depend on the processing

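Of the 42 genes, the number called with calcitriol against untreated cells was 1; it was 2 with a trended robust variance, 0 when only the arrays compared were fitted, and 0 to 1 when 1 array was left out (0 without the second GM10855 calcitriol array, the third GM10861 untreated array or the first GM10861 calcitriol array). With both agents it was 2, 4 with a trended robust variance, 1 with only the arrays compared, and 1 to 3 without 1 array. In the mean at 36 h it was 1, 2 with the filter at a mean of 5, with a trended robust variance or with array weights, and 0 to 2 without 1 array (0 without the third GM10861 untreated array, 2 without the second GM10855 estrogen array). For calcitriol added to estrogen it was 1, but 0 with all probe sets, with array weights or with only the arrays compared, and 0 to 1 without 1 array. Between the lines 28 genes were called, 25 to 30 without 1 array and 27 to 31 under the other settings; cyclic loess gave 4 higher and 27 lower, with a median of -0.20. Signs turned in 3 differences that were never called: ATP6V1D with estrogen (-0.088 to 0.026 without 1 array), TFEB with estrogen (0.014 with array weights; -0.052 to 0.011 without 1 array, 0.011 without the first GM10855 untreated array) and NAGLU in the line difference for calcitriol (-0.077 to 0.17 without 1 array, with -0.015 without the third GM10855 calcitriol array). The causes were not tested. Signs were followed only for called members and, where none was called, for the 3 smallest p-values in each direction. Turns of sign among the other differences were not looked for. Within GM10855, the calls of GLB1, ATP6V0A1, LAMP3, SCARB2 and NPC1 were lost in 4, 4, 3, 4 and 1 of 24 fits without 1 array, and NPC1 in the mean at 36 h in 2; they kept the call in 5, 6, 7, 6, 7 and 7 of 8 other settings, with adjusted p up to 0.377, 0.385, 0.253, 0.222, 0.13 and 0.21 when only the arrays compared were fitted. The fit of only the arrays compared was not run for the 3 comparisons that use all groups, and the filter removed MITF. A group with 1 array left out was assumed to vary like the others. No paired analysis was possible because the titles give no replicate numbers that groups share. Without detection limits, the low signals of MITF and GABARAPL1 are the least certain.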

Other observations

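Genes that deliver proteins to lysosomes, sense nutrients there or build autophagosomes gave the following calls. GNPTAB, which makes the mannose 6-phosphate tag of hydrolases, rose by 0.31 log2 units with both agents (limma, adjusted p = 0.00144) and by 0.21 in the mean at 36 h (adjusted p = 0.0211), as 1 of 15 delivery genes (6.67%). Of all probe sets 0.995% and 0.41% were called higher in those comparisons. RRAGD, a Rag GTPase that acts in mTORC1 signalling at the lysosome, rose by 0.25 when calcitriol was added to estrogen (adjusted p = 0.0452), as 1 of 17 genes of mTORC1 and folliculin, and ATG2B rose by 0.27 with both agents (adjusted p = 0.0336), as 1 of 30 further autophagy genes. These calls were 5.88% and 3.33% of their lists, against 0.679% and 0.995% of all probe sets called higher.

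Between the lines 18.4% of all probe sets were lower in GM10861 and 23.4% higher. RRAGD was lower in GM10861, at -1.47 log2 units (limma, adjusted p = 7.68e-19) and so was FNIP2, at -0.90, while RRAGC was 0.42 higher; of the 17 genes 3 were lower (17.6%) and 1 higher (5.88%). Of the 15 delivery genes 4 were lower (26.7%), GNPTAB at -0.64 and IGF2R, a mannose 6-phosphate receptor, at -0.47 among them, and 5 were higher (33.3%), with M6PR, the other such receptor, at 0.19. Further autophagy genes split into 9 lower and 8 higher of 30 (30% and 26.7%), with CALCOCO2 at -0.38 and ATG4C at 0.70.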
